A study of Drosophila melanogaster with 6 samples.

Results

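Transcript levels of autophagy and caspase cell death genes were examined in Drosophila melanogaster ovaries. The genes were chosen by symbol: every row of the deposited table named Atg followed by a digit, plus ref(2)P, the caspases Dcp-1, Drice, Dronc, Dredd, Strica and Damm, the apoptosome protein Dark, the inhibitors Diap1, Diap2 and Bruce, their antagonists hid, rpr, grim and skl, and the Bcl-2 family genes Debcl and Buffy. The rule found 37 of the 17457 rows, 20 Atg genes and 17 others, and used no measured value. In 3 ovary samples Sam-S, which encodes S-adenosylmethionine synthetase, was overexpressed by crossing flies with a UASp-Sam-S construct to nanos-gal4 flies. The 3 control samples came from nanos-gal4 flies mated to flies whose docking site was empty, so all 6 samples carried the driver. The nanos-gal4 driver is active in the germline, so the transgene is not driven in the somatic follicle cells whose RNA is also in the ovary. The samples of each group are numbered 1, 2 and 3, and same-numbered samples were taken here as batches, each with 1 sample of each group. Fly age and the number of ovaries per sample were not given in the sources used here, and nothing states that the samples of a group came from separate crosses, so p-values measure the spread between these samples.

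Autophagy wraps cytoplasm in a double membrane, the autophagosome, and delivers it to the lysosome. Caspases are proteases that dismantle dying cells and are held in check by inhibitor of apoptosis proteins. In the Drosophila ovary, egg chambers of starved or damaged females degenerate in mid-oogenesis with activation of the effector caspase Dcp-1 and of autophagy, whereas nurse cells of late egg chambers are removed mostly through acidification and engulfment by the surrounding stretched follicle cells. The comparison asks whether transcripts of these genes differ when the germline overexpresses Sam-S.

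Levels are given in TPM, a transcript abundance per unit of transcript length, scaled to an equal sum per sample. Sam-S was at 1572, 1443 and 1541 TPM in Sam-S overexpression ovaries and at 496.9, 512.3 and 483.3 TPM in control ovaries, in the order of replicates 1, 2 and 3, which is used for all values by sample. The germline markers vas, nos, osk, aub, orb and grk were all present, with summed levels of 1937 to 1985 TPM in Sam-S overexpression ovaries and 1849 to 1874 TPM in control ovaries, without overlap. More than any other marker osk carried that sum, at 1025 to 1070 TPM in Sam-S overexpression ovaries and 938.6 to 981.3 TPM in control ovaries. Without osk, the other 5 markers summed to between 909.3 and 942.3 TPM in Sam-S overexpression ovaries and between 890.1 and 935.5 TPM in control ovaries, with overlap. Of these, vas and nos each overlapped between the groups, while aub, orb and grk were each higher in Sam-S overexpression ovaries, without overlap. In Sam-S overexpression ovaries aub was at 93.3 to 105.2 TPM, orb at 256.8 to 269.8 TPM and grk at 25.2 to 27.2 TPM. In control ovaries aub was at 85.3 to 88.4 TPM, orb at 235.4 to 250.8 TPM and grk at 20.6 to 23.3 TPM. The follicle cell markers tj, Fas3, slbo, br, Vm26Aa and Cp36 were also all present and summed to between 6811 and 11688 TPM in Sam-S overexpression ovaries and between 8272 and 9522 TPM in control ovaries, nearly all of it from the eggshell genes Vm26Aa and Cp36. Sam-S overexpression replicate 1 stood apart with the sum of 11688 TPM. It also had the lowest of the 6 values in 39.7% of all tested features. The 4 ovarian muscle markers summed to between 63.3 and 89.2 TPM in Sam-S overexpression ovaries and between 57.6 and 80.3 TPM in control ovaries. The 4 haemocyte markers summed to between 2.11 and 3.74 TPM in Sam-S overexpression ovaries and between 1.86 and 2.62 TPM in control ovaries, nearly all of it from Ppn, since Hml, NimC1 and eater did not exceed 0.07 TPM. The 4 fat body markers summed to between 2019 and 3134 TPM in Sam-S overexpression ovaries and between 1955 and 2268 TPM in control ovaries, nearly all of it from the yolk protein gene Yp1, which follicle cells also express, while apolpp was at 1.96 to 6.04 TPM, Lsp2 at up to 0.03 TPM and Fbp1 listed at 0. The 4 testis markers summed to between 4.90 and 5.42 TPM in Sam-S overexpression ovaries and between 4.39 and 4.76 TPM in control ovaries, mostly from bol, without overlap, with dj listed at 0. The part of these marker differences in the results was not tested. In such bulk RNA, fewer cells of a type and less RNA per cell cannot be told apart.

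None of the autophagy and cell death genes passed the test between the groups. Features with a mean of at least 1 TPM over the 6 samples entered limma as log2(TPM + 1), and p-values were adjusted over all of them by Benjamini-Hochberg, with a threshold of 0.05. Of the 37 genes 32 were tested and 0 were called, while 22 of the 7855 tested features, or 0.28%, were called. Without control replicate 1 the called features numbered 11, without control replicate 3 they numbered 14, and 0 of the 32 genes were called in either case. Adjusted p ranged from 0.582 to 1.00. At an unadjusted p under 0.05 in limma there was 1 gene of the 32, Atg101, against 6.58% of all tested features. With the batch as a block that count was 0. Of the 37 genes 0 had, in the authors' deposited table, an FDR under 0.05, against 0.699% of all features, and 1, again Atg101, had an unadjusted p under 0.05, against 4.24%.

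The sizes of the differences were small. The log2 fold change, Sam-S overexpression over control, lay between -0.18 for Atg101 and 0.24 for hid. It was above 0 in 15 genes and below 0 in 17, and above 0 in 44.0% of all tested features. Its median was -0.0023, beside -0.01 over all tested features. When a sample was left out, the median of the 32 genes ran from -0.025 without Sam-S overexpression replicate 2 to 0.019 without Sam-S overexpression replicate 1, and that of all tested features from -0.034 to 0.014. The median absolute log2 fold change was 0.060 for the 32 genes and 0.059 for all tested features. The groups did not overlap in 3 of the 32 genes, 9.38%, with 2 of them higher and 1 lower in Sam-S overexpression ovaries. Over all tested features the groups did not overlap in 11.9%, with 6.25% higher and 5.6% lower. The sign of the difference was the same in all 3 batches in 9 of the 32 genes, against 23.7% of all tested features.

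The intervals limit how large a change could have gone unseen in these samples. The 95% confidence interval of the fold change lay wholly within 1.5-fold in either direction for all 32 tested genes, and within 1.2-fold for 21 of them. Among all tested features the shares were 89.1% and 57.6%. The lowest bound was 0.799-fold, for Atg101, and the highest was 1.45-fold, for hid. These bounds are on the log2(TPM + 1) scale, which understates changes of low genes such as hid, and they cover transcript levels only. Neither the lipidation of Atg8a nor the cleavage of caspases was measured.

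**Figure D1:**
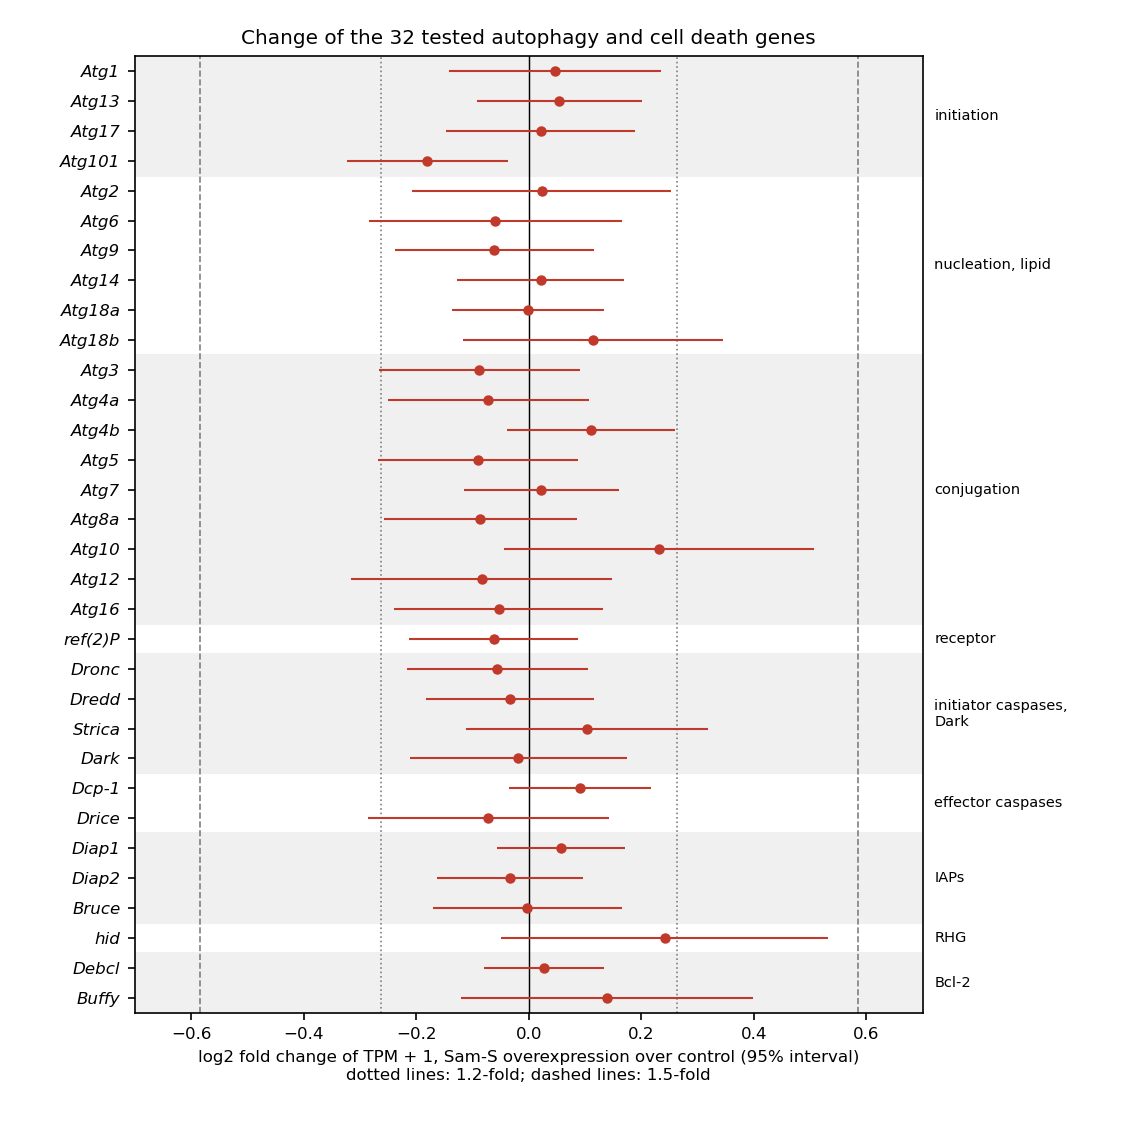
Log2 fold change of TPM + 1, Sam-S overexpression over control, for the 32 tested genes grouped by role (points, with 95% intervals from limma; dotted and dashed lines at 1.2-fold and 1.5-fold). Every interval lies inside the dashed lines, and the interval of Atg101 is the only one that does not cross 0.

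Levels differed far more between the genes than between the groups. The means over the 6 samples of 24 of the 37 genes lay between 20 and 110 TPM. Above this range stood ref(2)P at 283.7 TPM and Atg8a at 256.6 TPM, higher than 93.7% and 92.8% of tested features. Below it were Dark, Strica, Atg18b, Atg10, hid and Buffy, between 5.84 and 13.6 TPM, and the 5 genes under the filter, Damm, rpr, skl, grim and Atg8b, all at or under 0.30 TPM. The median of all tested features was 48.4 TPM, and 14 of the 37 genes lay above it.

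**Figure D2:**
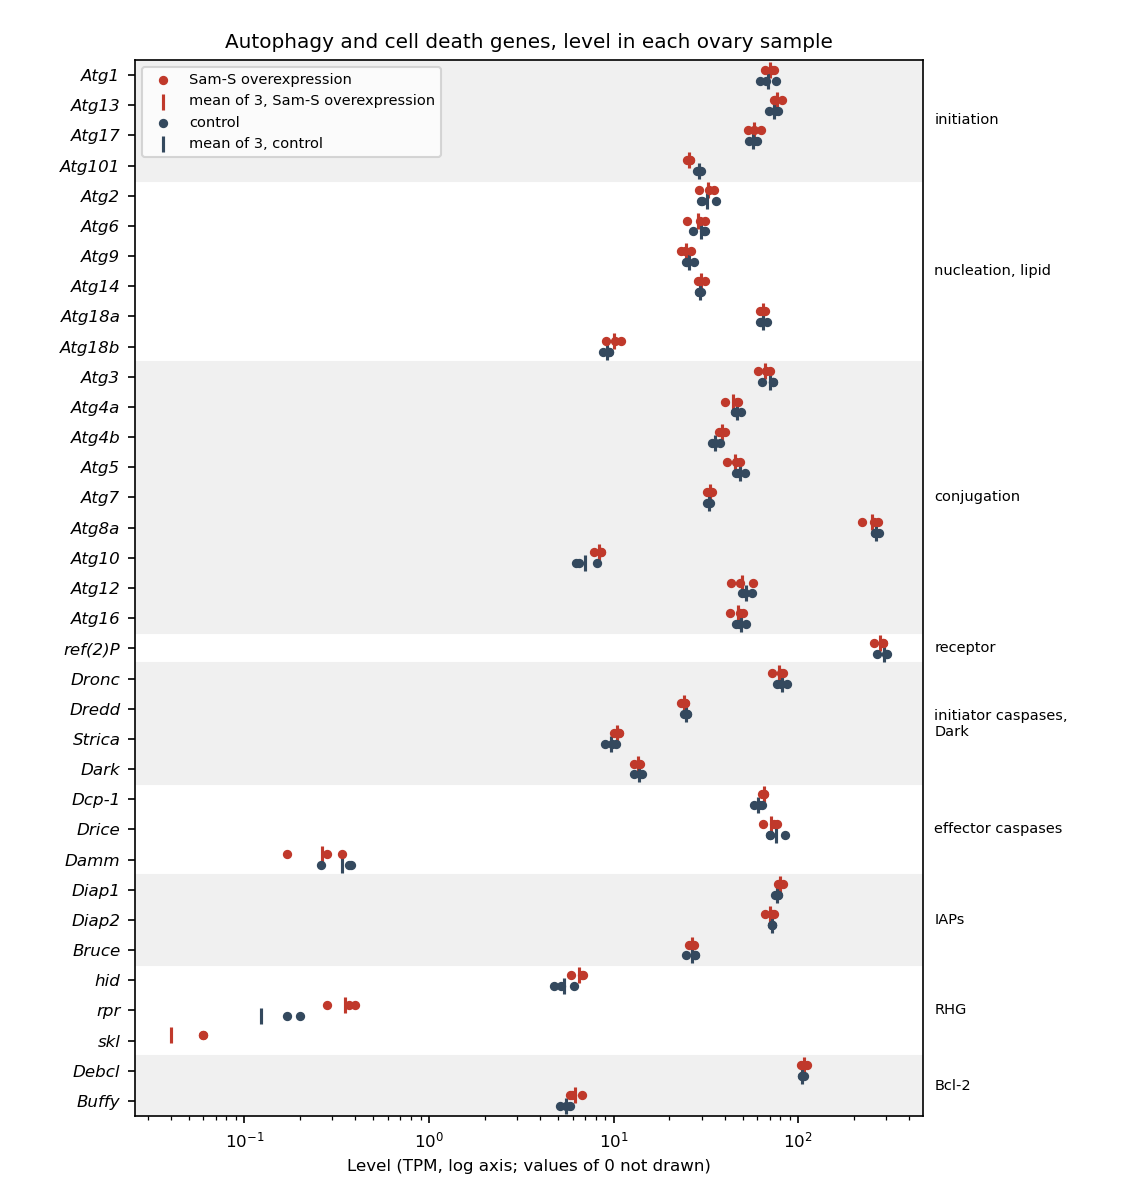
Level of each gene in TPM on a log axis, by role (points are single samples, with Sam-S overexpression above control for each gene; ticks are means of 3). Grim and Atg8b were listed at 0 in all samples and are left out. The points of the groups lie close together for every gene above 1 TPM, while genes range from 0.02 TPM for skl to 283.7 TPM for ref(2)P as means over the 6 samples.

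Autophagy starts with the Atg1 kinase and its partners Atg13, Atg17 and Atg101. Atg13 was the most abundant of the 4, at 73.99, 74.98 and 81.5 TPM in Sam-S overexpression ovaries and 74.6, 69.4 and 77.9 TPM in control ovaries. Atg1, the kinase itself, was at 66.1, 73.6 and 72.2 TPM in Sam-S overexpression ovaries and 67.2, 62.2 and 76.2 TPM in control ovaries. The groups overlapped in both genes, and the log2 fold changes were 0.05 for Atg13 (95% interval -0.092 to 0.20) and 0.05 for Atg1 (-0.14 to 0.23). Atg17, the fly counterpart of the mammalian scaffold FIP200, averaged 57.9 ± 4.80 TPM in Sam-S overexpression ovaries and 56.9 ± 2.73 TPM in control ovaries (SD, n = 3 each).

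Atg101 (FBgn0030960, X, 18791668 to 18793517, plus strand) encodes a subunit that binds Atg13 in the mammalian kinase complex, and was the gene nearest to the threshold. It was at 24.98, 25.96 and 25.77 TPM in Sam-S overexpression ovaries and 28.2, 29.7 and 29.5 TPM in control ovaries. Every Sam-S overexpression sample was below every control sample, and the mean was 0.878-fold that of control ovaries. On the log2 scale the difference was -0.18 (standard error 0.062, adjusted p = 0.582 in limma). It was -0.17 in batch 1, -0.19 in batch 2 and -0.19 in batch 3. In the authors' deposited table its log2 fold change was -0.19 with an FDR of 1. Over the 13 alternative settings the log2 fold change stayed between -0.20 and -0.16, with adjusted p from 0.433 to 1.00. Its single annotated transcript shares no exon bases with another gene.

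**Figure D3:**
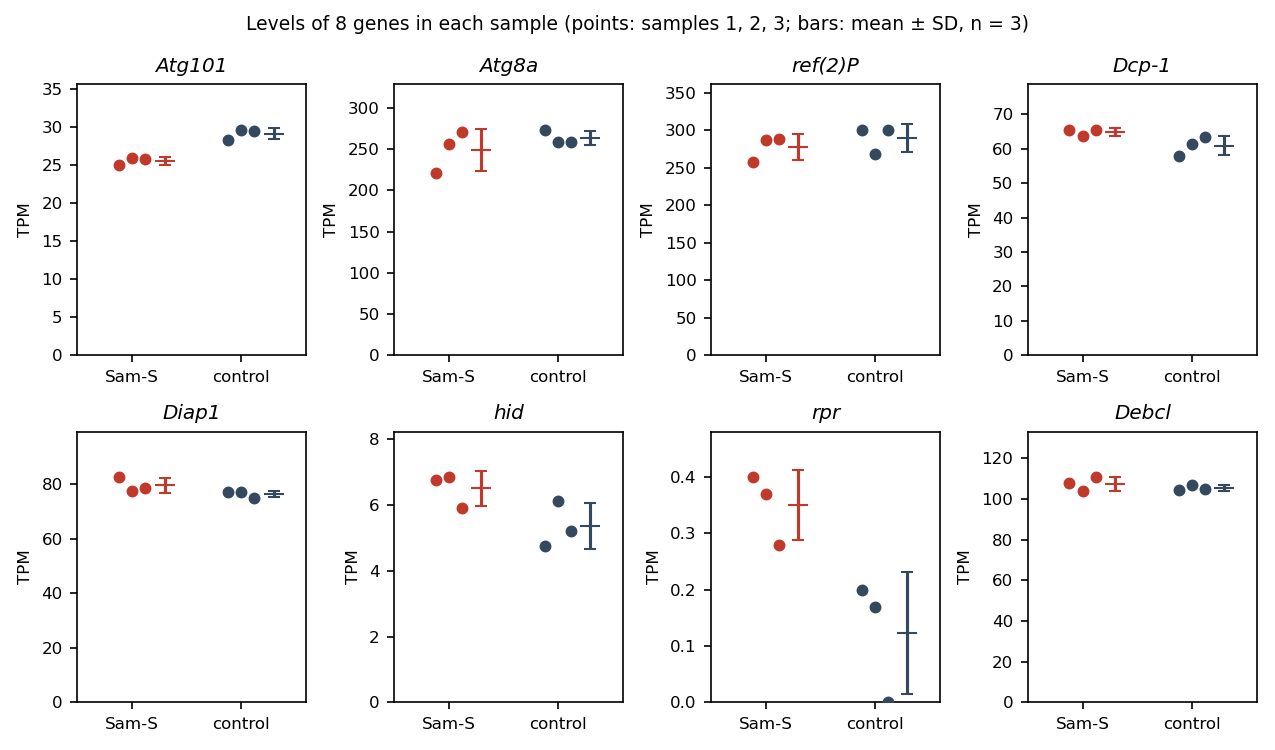
Levels in TPM of 8 genes in each sample, with axes from 0 (points are replicates 1, 2 and 3 of each group; bars are the mean ± SD, n = 3). The groups do not overlap in Atg101, Dcp-1, Diap1 and rpr and overlap in Atg8a, ref(2)P, hid and Debcl.

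The growing membrane is built with the lipid carrier Atg2, the membrane protein Atg9, the phospholipid-binding proteins Atg18a and Atg18b, and Atg6 and Atg14, subunits of the phosphatidylinositol 3-kinase complex. Atg18a was the most abundant of the 6, at 61.8, 64.3 and 66.1 TPM in Sam-S overexpression ovaries and 61.9, 62.7 and 68.1 TPM in control ovaries. Its paralog Atg18b averaged 10.1 ± 0.93 TPM in Sam-S overexpression ovaries and 9.24 ± 0.38 TPM in control ovaries (SD, n = 3 each). Atg2 was at 33.0, 35.1 and 28.9 TPM in Sam-S overexpression ovaries and 29.7, 29.96 and 35.8 TPM in control ovaries. The groups overlapped in all 6 genes, and their log2 fold changes lay between -0.06 and 0.11, with the smallest adjusted p at 0.944.

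Atg8a is the ubiquitin-like protein that is coupled to lipid on the autophagosome. The gene (FBgn0052672, X, 10764878 to 10768338, minus strand) was at 220.9, 256.4 and 270.6 TPM in Sam-S overexpression ovaries and 273.7, 259.1 and 258.8 TPM in control ovaries. The groups overlapped, replicate 1 being the lowest sample of the first and the highest of the second. The log2 fold change was -0.09 (95% interval -0.26 to 0.085), and without Sam-S overexpression replicate 1 it was -0.0019. The paralog Atg8b was listed at 0 in all 6 samples, so Atg8a supplied all measured Atg8 transcripts.

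The other conjugation genes encode the enzymes that attach Atg8 and Atg12. Atg3, which passes Atg8 to lipid, was at 60.4, 70.3 and 66.7 TPM in Sam-S overexpression ovaries and 73.3, 64.0 and 72.7 TPM in control ovaries, with overlap. Atg7, the activating enzyme of both pathways, averaged 33.3 ± 1.13 TPM in Sam-S overexpression ovaries and 32.8 ± 0.60 TPM in control ovaries (SD, n = 3 each). Atg5, Atg12 and Atg16, which form the ligase that acts on Atg8, had means over the 6 samples between 46.7 and 50.8 TPM. Atg10, which couples Atg12 to Atg5, was the lowest of the tested conjugation genes and had the largest difference among them. It averaged 8.30 ± 0.41 TPM in Sam-S overexpression ovaries and 6.963 ± 1.006 TPM in control ovaries (SD, n = 3 each). The groups overlapped and the log2 fold change of 0.23 had an adjusted p of 0.854 in limma. Atg10 shares exon bases with CG12822 on the same strand and with Dgk on the opposite strand, the larger of the overlaps being 707 bases. CG12822 was at 58.9 TPM in Sam-S overexpression ovaries and 60.7 TPM in control ovaries as means. How such reads were assigned was not given in the sources used here.

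The proteases Atg4a and Atg4b trim Atg8 and release it from membranes. Atg4a averaged 44.5 ± 3.96 TPM in Sam-S overexpression ovaries and 46.7 ± 2.14 TPM in control ovaries, and Atg4b averaged 38.5 ± 1.58 TPM in Sam-S overexpression ovaries and 35.6 ± 1.75 TPM in control ovaries (SD, n = 3 each). Their log2 fold changes had opposite signs, -0.07 for Atg4a and 0.11 for Atg4b, and neither passed the test. Of the 9 tested conjugation genes 3 had a log2 fold change above 0, against 44.0% of all tested features. The other 6 were below 0, and the median of the 9 was -0.07. Without Sam-S overexpression replicate 1 that median was 0.0082, beside 0.014 over all tested features, and 3 of the 9 were below 0.

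The adaptor ref(2)P, the fly p62, binds ubiquitinated cargo and Atg8 and is itself degraded by autophagy. The gene (FBgn0003231, 2L, 19542468 to 19545548, plus strand) was at 257.6, 287.0 and 288.1 TPM in Sam-S overexpression ovaries and 301.1, 268.3 and 300.0 TPM in control ovaries. The groups overlapped, with a log2 fold change of -0.06 (95% interval -0.21 to 0.088). The ratio of Atg8a to ref(2)P, looked at after the values were seen, was 0.857, 0.894 and 0.939 in Sam-S overexpression ovaries and 0.909, 0.966 and 0.862 in control ovaries, again with overlap.

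One sample held most of the low values among the autophagy genes. Sam-S overexpression replicate 1 was the lowest of the 6 samples in 12 of the 20 tested autophagy genes, ref(2)P included, and in 2 of the 12 tested cell death genes, beside 39.7% of all tested features. Over all tested features 44.0% had a log2 fold change above 0. Among the 20 autophagy genes 9 were above 0 and 11 below, with a median of -0.03. Without that sample 6 were below 0 and the median was 0.02. Over all tested features the median was -0.012 with all samples and 0.014 without that sample. Sam-S overexpression replicate 1 was also the sample with the highest summed eggshell transcripts, and whether this bears on the autophagy genes was not tested.

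**Figure D4:**
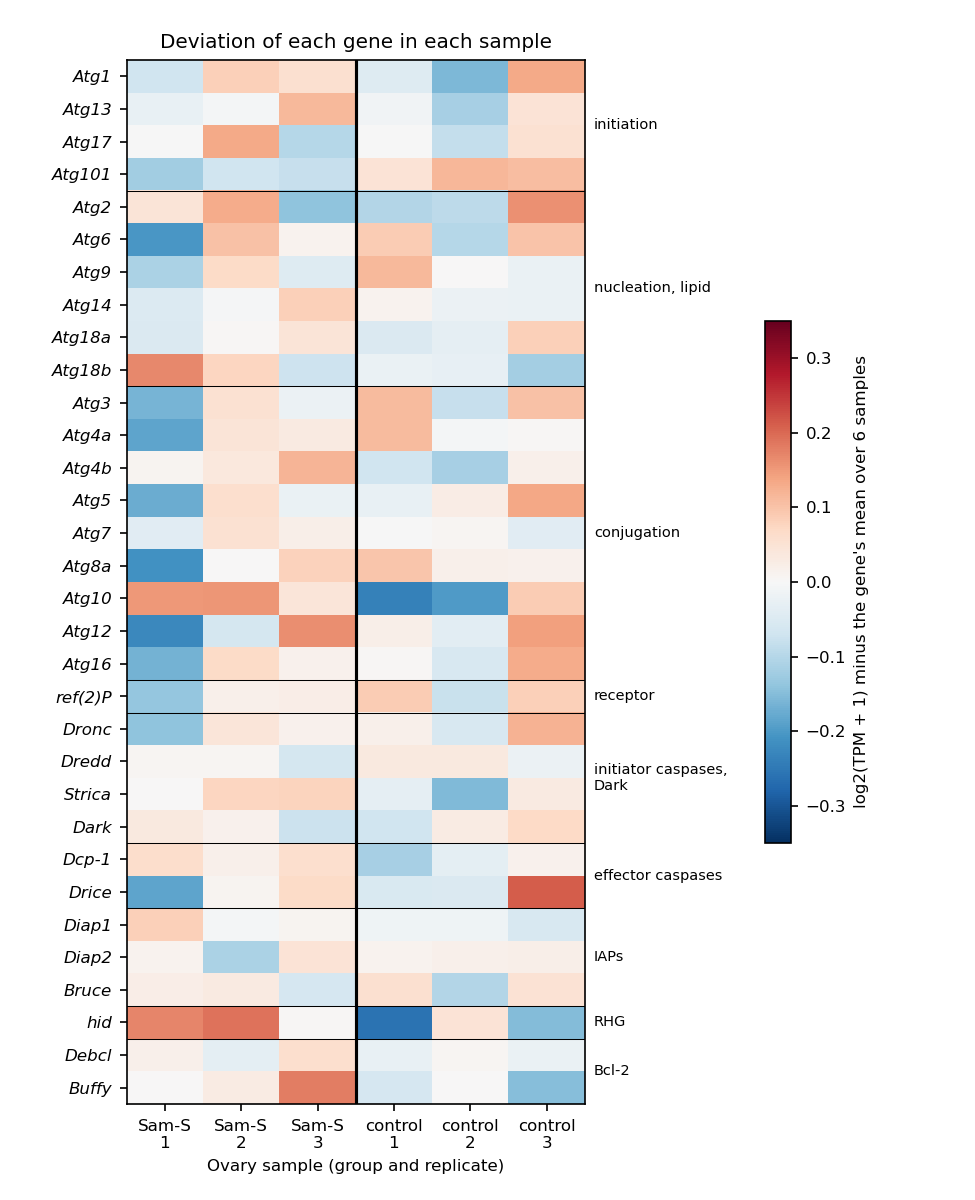
Deviation of log2(TPM + 1) from the gene's mean over the 6 samples, for the 32 tested genes (rows, by role) in each sample (columns). The column of Sam-S overexpression replicate 1 is blue for most conjugation genes and for ref(2)P, and in the row of Atg101 the 3 Sam-S overexpression samples are blue and the 3 control samples are red.

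Initiator caspases are switched on first in the cascade, and Dronc does so on the Dark apoptosome. Dronc (FBgn0026404, 3L, 9968479 to 9971002, plus strand) was the most abundant caspase, at 72.5, 82.4 and 80.9 TPM in Sam-S overexpression ovaries and 80.96, 76.95 and 87.1 TPM in control ovaries. Dredd, the initiator of the Imd immune pathway, was at 24.4, 24.4 and 23.2 TPM in Sam-S overexpression ovaries and 24.9, 24.9 and 23.9 TPM in control ovaries. The groups overlapped in both, with log2 fold changes of -0.06 and -0.03. Dark, which assembles the apoptosome, was lower than Dronc in every sample and averaged 13.5 ± 0.57 TPM in Sam-S overexpression ovaries and 13.7 ± 0.72 TPM in control ovaries (SD, n = 3 each). Strica, an initiator-type caspase with a role in oogenesis that overlaps that of Dronc, averaged 10.5 ± 0.34 TPM in Sam-S overexpression ovaries and 9.69 ± 0.69 TPM in control ovaries (SD, n = 3 each), with overlap. The exons of Strica and of Dark overlap those of genes on the opposite strand, Pngl and asRNA:CR44390. The libraries were stranded, per the labels' protocols, but whether counting used the strand was not given.

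The effector caspases Dcp-1 and Drice cut most cellular targets, and Dcp-1 is the main one in dying mid-oogenesis egg chambers. Dcp-1, on chromosome arm 2R, was at 65.5, 63.6 and 65.4 TPM in Sam-S overexpression ovaries and 57.8, 61.4 and 63.4 TPM in control ovaries. The groups did not overlap, though the nearest samples differed by less than the spread within either group. On the log2 scale Dcp-1 differed by 0.09 (standard error 0.055, adjusted p = 0.887 in limma), and without control replicate 1 by 0.055. Drice was at 64.3, 73.6 and 76.7 TPM in Sam-S overexpression ovaries and 70.5, 70.6 and 84.8 TPM in control ovaries, with overlap and a log2 fold change of -0.07. Damm, another effector-type caspase, was between 0.17 and 0.34 TPM in Sam-S overexpression ovaries and between 0.26 and 0.38 TPM in control ovaries.

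Inhibitors of apoptosis bind caspases and mark them or their activators for degradation. Diap1 (FBgn0260635, 3L, 16038410 to 16051034, minus strand), which restrains Dronc and Drice, was at 82.8, 77.6 and 78.6 TPM in Sam-S overexpression ovaries and 77.2, 77.3 and 75.02 TPM in control ovaries. The groups did not overlap, but the lowest Sam-S overexpression sample was only just above the highest control sample. On the log2 scale Diap1 differed by 0.06 (standard error 0.050, adjusted p = 0.940 in limma), and without Sam-S overexpression replicate 1 by 0.029. Diap2, which acts in Imd signalling and on Drice, was at 71.95, 65.99 and 73.7 TPM in Sam-S overexpression ovaries and 71.95, 72.2 and 72.3 TPM in control ovaries. The giant inhibitor Bruce averaged 26.5 ± 0.95 TPM in Sam-S overexpression ovaries and 26.6 ± 1.70 TPM in control ovaries (SD, n = 3 each). Both overlapped between the groups.

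The proteins encoded by hid, rpr, grim and skl, often called the RHG genes, bind inhibitors of apoptosis and free the caspases. The 4 genes lie in the same orientation, on the minus strand of 3L, within 272.2 kb from 18167745 to 18439942. Of the 4, hid (FBgn0003997, 3L, 18167745 to 18185641) alone passed the filter. It was at 6.76, 6.86 and 5.91 TPM in Sam-S overexpression ovaries and 4.76, 6.13 and 5.21 TPM in control ovaries. The groups overlapped through Sam-S overexpression replicate 3 and control replicate 2. The log2 fold change of 0.24 was the largest of the 32 genes, with a 95% interval from -0.049 to 0.53 and an adjusted p of 0.854 in limma. The log2 difference was 0.43 in batch 1, 0.14 in batch 2 and 0.15 in batch 3. In the authors' deposited table its log2 fold change was 0.27 with an FDR of 1. The ratio of Diap1 to hid, looked at after the values were seen, was 12.2, 11.3 and 13.3 in Sam-S overexpression ovaries and 16.2, 12.6 and 14.4 in control ovaries, with overlap.

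The other RHG genes were near 0. The gene rpr (FBgn0011706, 3L, 18397535 to 18398435) was at 0.40, 0.37 and 0.28 TPM in Sam-S overexpression ovaries and 0.20, 0.17 and 0 TPM in control ovaries. The groups did not overlap, at a level below the filter. In the fit with no filter on low values its adjusted p in limma was 0.611, and in the authors' deposited table its FDR was 1. The gene skl was at 0.06, 0.06 and 0 TPM in Sam-S overexpression ovaries and listed at 0 in all control ovaries, and grim was listed at 0 in all 6 samples. TPM keeps no sequencing depth, so these low values cannot be set against counting error. The distance from hid to its nearest RHG neighbour, grim, is 117.1 kb.

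The Bcl-2 family genes differed from each other in level. Debcl, which promotes cell death, was the third most abundant of the 37 genes, at 107.6, 103.9 and 110.8 TPM in Sam-S overexpression ovaries and 104.5, 106.8 and 104.7 TPM in control ovaries. Buffy, the other family member, was at 5.83, 5.96 and 6.73 TPM in Sam-S overexpression ovaries and 5.55, 5.83 and 5.15 TPM in control ovaries. The groups overlapped in Debcl and met at the same value in Buffy, and the log2 fold changes were 0.03 and 0.14. The ratio of Debcl to Buffy was between 16.5 and 18.5 in Sam-S overexpression ovaries and between 18.3 and 20.3 in control ovaries.

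Genes that act with these pathways were taken from 5 lists and gave the same count of calls. Of 59 genes 54 were tested, and 0 passed, beside 0.28% of all tested features. At an unadjusted p under 0.05 in limma there was 1, the lysosomal protease gene CtsB1, against 6.58% of all tested features. In the authors' deposited table none of them, 0 of 59, had an FDR under 0.05, while 1, Pvr, had an unadjusted p under 0.05, against 4.24% of all features. The groups did not overlap in 11 of the 54, or 20.4%, against 11.9% of all tested features, and 9 of these were higher and 2 lower in Sam-S overexpression ovaries. Over all tested features 6.25% were higher and 5.6% lower without overlap. The median log2 fold change of the 54 was 0.00046.

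Among regulators of the phosphatidylinositol 3-kinase and of the autophagosome, 0 of 9 passed, and Vmp1, needed for autophagosome formation, had the smallest adjusted p, 0.897 in limma. Its mean was 111.2 ± 3.35 TPM in Sam-S overexpression ovaries and 105.8 ± 0.16 TPM in control ovaries (SD, n = 3 each), without overlap. Among 11 genes of autophagosome and lysosome fusion 0 passed. Rab7, the GTPase of late endosomes, averaged 219.3 ± 7.94 TPM in Sam-S overexpression ovaries and 207.6 ± 1.70 TPM in control ovaries (SD, n = 3 each), and limma gave it an adjusted p of 0.881. The groups did not overlap in Rab7, which was higher in Sam-S overexpression ovaries, nor in Vamp7, which was lower.

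Lysosomal protein genes ranged widely as means over the 6 samples. They ran from 0.10 TPM for DNaseII, below the filter, to 894.2 TPM for Cp1, the cathepsin L gene. Of 8 tested 0 passed. CtsB1, the cathepsin B gene, was at 170.2, 181.1 and 172.0 TPM in Sam-S overexpression ovaries and 153.0, 167.7 and 156.8 TPM in control ovaries, without overlap. The difference of 0.13 on the log2 scale had an adjusted p of 0.679 in limma. In cathD the groups did not overlap either, but it was lower in Sam-S overexpression ovaries. It was at 287.3, 276.0 and 292.0 TPM there and at 302.5, 299.9 and 296.4 TPM in control ovaries. Its log2 fold change was -0.07 (adjusted p = 0.884 in limma). Over all tested features 6.25% were higher and 5.6% lower without overlap.

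Follicle cells clear dying germline cells with the engulfment receptor Draper and its partners. Of 9 tested engulfment genes 0 passed, and drpr, which encodes Draper, was at 68.1, 65.4 and 64.2 TPM in Sam-S overexpression ovaries and 58.9, 62.1 and 61.1 TPM in control ovaries. The groups did not overlap in 3 of the 9, drpr, mbc and Pvr, all higher in Sam-S overexpression ovaries. Over all tested features 6.25% were higher and 5.6% lower without overlap. Of the 9 log2 fold changes 5 were above 0 and 4 below, with a median of 0.0084. For drpr limma gave a log2 fold change of 0.12 (adjusted p = 0.772). Among 17 other tested apoptosis genes 0 passed. The smallest adjusted p there, 0.864 in limma, was that of bsk, the JNK gene, which averaged 25.4 ± 0.55 TPM in Sam-S overexpression ovaries and 22.5 ± 2.70 TPM in control ovaries (SD, n = 3 each). The groups did not overlap in 3 of these 17 genes, bsk included, all higher in Sam-S overexpression ovaries, against 6.25% of all tested features. Of the 17 log2 fold changes 9 were above 0 and 8 below, with a median of 0.0058. The effector-type caspase gene Decay was listed at 0 in all 6 samples.

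**Figure D5:**
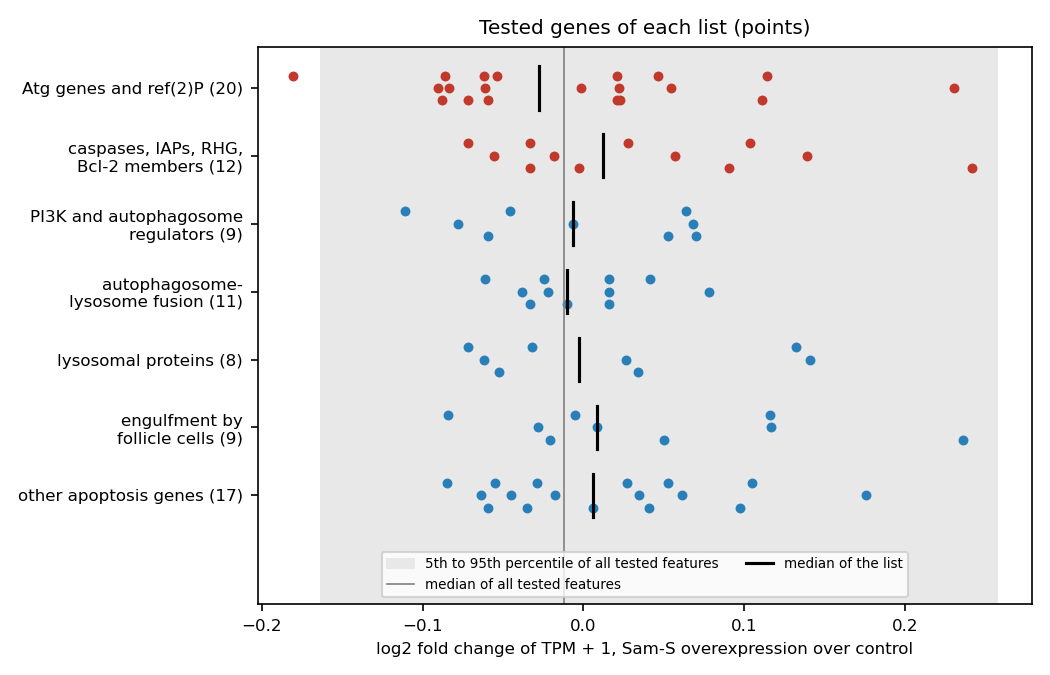
Log2 fold change of TPM + 1, Sam-S overexpression over control, of the tested genes of each list (points; black bars are list medians; the number of genes is in parentheses). The grey band spans the 5th to 95th percentile of all tested features, -0.16 to 0.26, and Atg101 is the only point outside it.

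All 37 genes are annotated as protein-coding, and their coordinates in the deposited table equal those of the BDGP6.54 annotation. They are spread over the major arms, with 11 on 3L, 10 on 2R, 9 on 3R, 4 on X and 3 on 2L. Annotated transcripts run from 469 bp for Atg12 to 15702 bp for Bruce, and 16 of the genes have a single annotated transcript. Exon bases are shared with another gene in 14 of them, ref(2)P, Dcp-1, Diap1 and Atg4a included. The largest overlap of each ran from 1 base for Diap2 to 2779 bases for Dark. All 14 overlap a gene on the opposite strand, and 4 of them also one on the same strand. Since the use of the strand in counting was not given, those levels may be less certain, which was not tested.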

How the data were processed

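PolyA RNA from ovaries was sequenced in 6 samples, 3 per group, from stranded TruSeq libraries, per the labels' protocols. Per the file headers, the authors deposited TPM for each sample, and for their own comparison a log2 fold change, log2 CPM, p-value and FDR. STAR is named in the submitters' processing notes. Its version, the counting, the build and the tool of the authors' comparison were not given in the sources used here. TPM keeps no depth, so depth is unknown and no counting interval was computed.

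Groups came from the sample titles, and 0 value columns lacked a sample. The test was limma 3.58.1 in R 4.3.3 on log2(TPM + 1), with lmFit, eBayes with trend, 1 group term and all 6 samples. It covered 7855 features whose mean TPM was 1 or more, with two-sided p-values adjusted by Benjamini-Hochberg, and was tested on simulated data. Values by sample are given for those of the 37 genes with an adjusted p, or an FDR in the authors' deposited table, under 0.05, for those with an unadjusted p under 0.05 or groups apart, for the 2 most abundant of each role, and for all RHG genes. Of the related lists, the rule named genes past either adjusted threshold or, with none, the smallest p of each list, by sample or as means. Other genes of these lists, and CG12822, were chosen after their values were seen. The members and lists were chosen with earlier results of these data known. Of the 59 related genes 5 were matched through RefSeq synonyms (Release 6).

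Alternatives were a pseudocount of 0.1, no filter, a minimum mean of 5 TPM, scaling by a trimmed mean, quantile normalization, the batch as a block, no trend, and leaving out each sample. Batch and replicate numbers are equal, so the batch as used here pairs same-numbered samples. Deviations of same-numbered samples correlated at -0.057, -0.062 and 0.21 across features. Other steps used Python 3.11.15, pandas 2.3.3, numpy 2.4.6 and matplotlib 3.10.9.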

Additional observations from a re-analysis of the deposited data

How the results depend on the processing

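The counts of called autophagy and cell death genes and of called related genes stayed at 0 under all 13 alternatives with limma. Between 0 and 2 of the former had an unadjusted p under 0.05: Atg101 in most fits, and in some rpr, Atg4b, hid or Atg10. All features called numbered 13 with no filter, and 11 to 27 when a sample was left out; with the replicate block there were 16, and the block changed no call of the genes reported. The log2 fold change of Sam-S stayed between 1.58 and 1.64.

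Of 416 log2 fold changes under alternatives 24 changed sign, and the others kept their sign and their side of the threshold. Under quantile normalization Atg18a was at 0.019 and Bruce at 0.0075. When a sample was left out, 14 genes changed sign at least once: Atg1 ran from -0.020 to 0.12, Atg2 from -0.037 to 0.11, Atg4a from -0.11 to 0.0026, Atg6 from -0.13 to 0.027, Atg12 from -0.19 to 0.0082, Atg14 from -0.016 to 0.050, Atg16 from -0.10 to 0.015, Atg17 from -0.040 to 0.076, Atg18a from -0.028 to 0.040, Bruce from -0.055 to 0.026, Dark from -0.058 to 0.014, Diap2 from -0.065 to 0.014, Drice from -0.12 to 0.016 and Dronc from -0.097 to 0.00082. The cause was not tested.

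With 3 samples a group and no depth, a count of 0 does not show that the groups were equal. The 95% intervals give the bounds.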
